A study of Canis lupus familiaris with 55 samples.

Results

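The 7 genes described here, WT1, NR5A1, LHX9, EMX2, SIX4, TCF21 and CITED2, encode regulators of transcription that act in the gonad before it becomes an ovary or a testis. They were chosen by name for this role, with earlier results of these data known. Their RNA was followed by RNA-seq in dog embryonic gonads of both sexes from gestational day (d) 34 to d44. For 6 of them the values were those of the locus carrying the gene's name among the 58781 loci of an annotation-guided transcript assembly. NR5A1 was read by its Ensembl identifier (ENSCAFG00000023086) from the companion table of 24581 annotated genes, because its assembled locus carried the symbol SF1, a name that another locus on CFA18 also bears. Each of the 7 genes passed the filter on low values, a group mean of 1 FPKM or more (a read density scaled to transcript length and to library size) on either side, in every comparison.

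In mammals the gonads arise as paired genital ridges, thickenings of the coelomic epithelium on the mesonephros, which can follow either fate. WT1, a zinc finger protein, and NR5A1 (steroidogenic factor 1), a nuclear receptor, stand near the top of the hierarchy that forms the ridge, and NR5A1 later drives steroidogenic genes in Leydig cells. The LIM homeobox factor LHX9 and the homeobox factor EMX2 are needed in the epithelium for it to thicken and to feed cells into the ridge, and SIX4, a homeobox factor, and CITED2, a coregulator that works with WT1, raise NR5A1 expression in the early mouse gonad. TCF21, a basic helix-loop-helix factor of mesenchymal and supporting cells, represses NR5A1 in the mouse.

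Gonad pairs came from 2 kinds of litters. The model pedigree, of American cocker spaniel and beagle descent, carries the guanine insertion on CFA9 associated with XX DSD, a disorder of sex development in which SRY-negative dogs form testes or ovotestes. Its XX embryos are called XX DSD here although they were only at risk: they were homozygous or heterozygous for the insertion. Each gonad pair held too little tissue to allow histology as well as RNA-seq. XX DSD libraries numbered 9 at d35 (4 homozygous, 5 heterozygous, 4 litters), 8 at d37-39 (6 homozygous, 2 heterozygous, 4 litters) and 6 at d41-44 (all homozygous, 4 litters). XY littermates also carried at least 1 insertion allele. They gave 4 libraries at d35 (3 homozygous, 1 heterozygous, 2 litters) and 5 at d37-39 (all homozygous, 4 litters). The 3 of d41-42 (1 homozygous, 2 heterozygous, 2 litters) were placed in the d41-44 group. Some XX DSD litters of d35 and d41-44 had no XY embryo, so litter and genotype also differ in part between the sexes of this pedigree. Controls were XX and XY embryos of wild type beagle parents, with 6 libraries of each sex at d37-39 (1 litter at d37 and 1 at d39) and 3 of each sex at d44 (1 litter). At d34, 1 pool of 6 XX and 1 pool of 7 XY control embryos were sequenced, without replicates. Breed background, litter, the insertion and the sequencing pool cannot be told apart between pedigrees, and each age is a different set of litters. The study pooled libraries for sequencing by group, and the run of each library is not given.

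Depth and tissue content differed among the 55 libraries. The tables hold no counts, but steps in the lowest FPKM values placed the deepest library 6.64-fold above the shallowest. With the deepest set at 1, XX DSD gonads of d41-44 lay at 0.236 to 0.295 and XX controls of d44 at 0.611 to 0.853. XY littermates of d41-44 lay at 0.2517 to 0.2912 and XY controls of d44 at 0.4005 to 0.5905. The 4 libraries with the most unannotated loci at 1 FPKM or more (6839 to 8691, at most 4962 in the others) were XY littermate replicates 3, 4 and 5 and XY control replicate 2 of d37-39, and results that rest on them are also given without them. The labelled tissue and sexes fitted the markers in the single embryos: the summed FPKM of 5 Sertoli markers was 131 to 291 in XY and 11.5 to 51.2 in XX gonads, and that of 6 pre-granulosa markers was 7.34 to 24.7 in XY and 54.7 to 220 in XX gonads. The XY pool of d34 held a Sertoli sum of 227 but also a pre-granulosa sum of 79.4, near the 84.0 of the XX pool. These are whole gonads, so fewer cells of a type and less RNA per cell cannot be told apart.

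The loci are given on CanFam3, and since the libraries were made with a kit that does not mark strand, reads of a gene and of a locus opposite to it cannot be told apart. WT1 lies at chr18:35094822-35152262 (+ strand) with 45 assembled transcripts, and its upstream end overlaps the opposite-strand gene EIF3M by 2040 bp. The assembled NR5A1 locus lies at chr9:58463849-58497069 (+), and its downstream end overlaps GPR144, whose mean level was 0.448 FPKM. The annotated gene, from which NR5A1 was read, ends at 58488207, before GPR144 begins at 58493603. LHX9 is at chr7:4878527-4900621 (−), EMX2 at chr28:27903015-28009976 (+), SIX4 at chr8:35735887-35749208 (−), TCF21 at chr1:26856627-26862120 (+) and CITED2 at chr1:31522838-31525632 (−). Within EMX2 lies an opposite-strand locus (ENSCAFG00000029991, 17847 bp of overlap), and TCF21 shares 3034 bp with another (ENSCAFG00000000202); both also carry the member's name as antisense and were not counted as members. SIX4 overlaps the opposite-strand gene MNAT1 by 1560 bp.

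**Figure D1:**
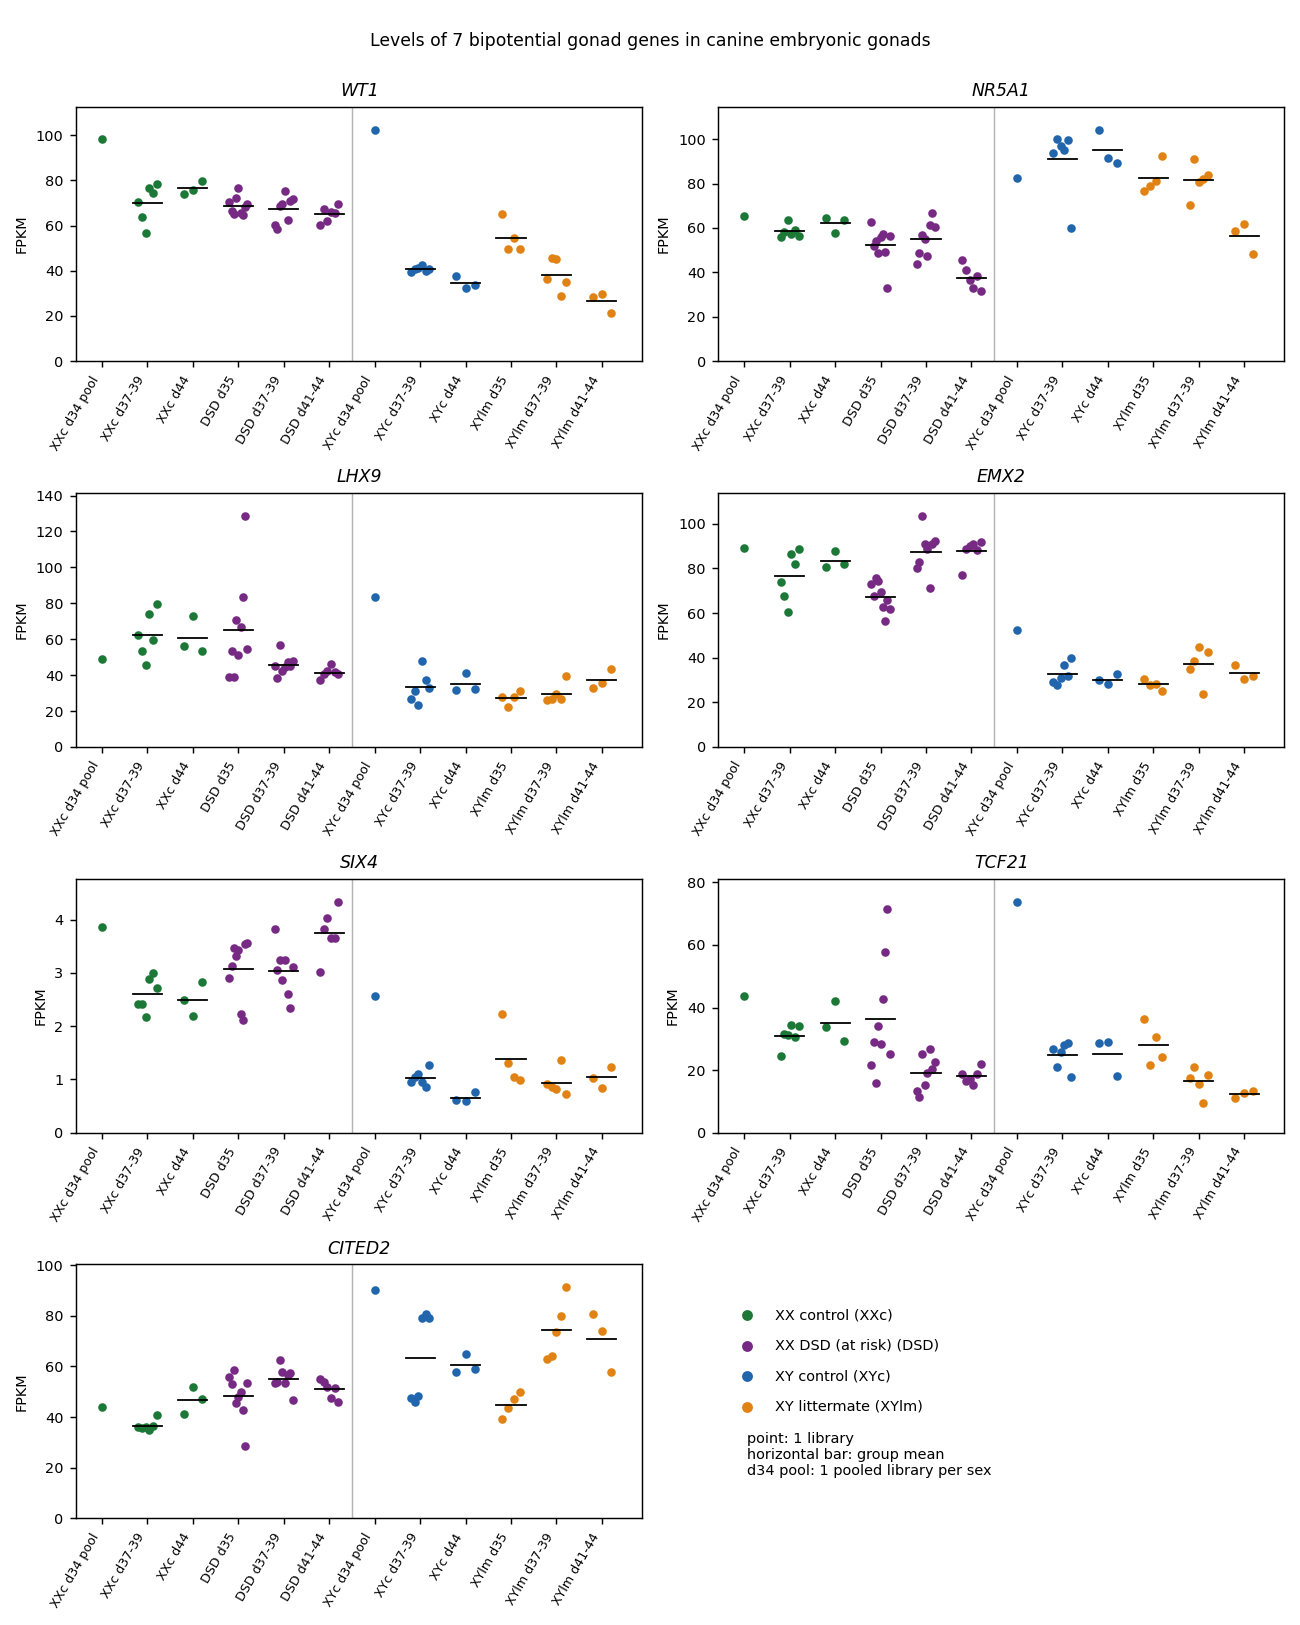
FPKM (y axis, linear from 0) of each of the 7 genes in every library (1 point each) by group (x axis), XX groups to the left of the vertical line and XY groups to the right, with group means as bars. EMX2 and SIX4 keep XX points above XY points in almost all groups, and SIX4 stays under 5 FPKM throughout. The NR5A1 mean is lower in XX than in XY gonads of the same pedigree and age.

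On the FPKM scale, which is per transcript length, 6 of the genes were abundant and SIX4 was low. Group means of single embryos ran from 26.4 to 76.6 FPKM for WT1, from 37.7 to 94.9 for NR5A1, from 27.1 to 65.1 for LHX9, from 28.0 to 87.8 for EMX2, from 12.4 to 36.2 for TCF21, from 36.6 to 74.4 for CITED2 and from 0.657 to 3.75 for SIX4. The order of the genes depended on sex: EMX2 had the highest mean of the 7 in XX controls of d37-39 (76.5 FPKM) and NR5A1 in XY controls of the same age (90.9 FPKM). For EMX2, all 5 single-embryo XX groups ranked above all 5 XY groups, and the lowest XX group (XX DSD d35, 56.4 to 75.7 FPKM) did not overlap the highest XY group (XY littermates of d37-39, 23.7 to 44.9 FPKM). Within each sex, neighbouring EMX2 groups overlapped. For WT1 the 5 XX groups also ranked first, but XX DSD gonads of d41-44 (60.1 to 69.7 FPKM) overlapped XY littermates of d35 (49.4 to 65.0 FPKM). For NR5A1, XX DSD gonads of d41-44 were the lowest of the 10 groups. XY littermates of d41-44 (mean 56.3 FPKM) ranked below XX controls of d37-39 (58.5 FPKM) and d44 (62.1 FPKM). In the d34 pools WT1 stood at 98.5 FPKM (XX) and 102 FPKM (XY), above every single embryo, while CITED2 stood at 43.9 (XX) and 90.1 FPKM (XY) and EMX2 at 89.3 (XX) and 52.4 FPKM (XY).

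Sex differences come first, tested with limma on log2(FPKM + 1) with Benjamini-Hochberg adjustment over all loci of the table; a gene that reached an adjusted p under 0.05 is said to have passed. In control gonads of d37-39, 6 of the 7 genes passed, against 26.5% of all loci tested in the assembly table and 40.9% in the annotated table used for NR5A1. WT1, LHX9, EMX2 and SIX4 were higher in XX gonads, and NR5A1 and CITED2 were higher in XY gonads. The libraries of the sexes did not overlap for 4 of the 7 genes (17.3% of all loci). The same 6 genes passed in the same directions in controls of d44 (24.8% of loci in the assembly table, 36.3% in the annotated table). There the sexes did not overlap for any of the 7 genes, but with 3 libraries of each sex 44.2% of all loci were apart.

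EMX2 and SIX4 were higher in XX gonads at both control ages. EMX2 ranged from 60.4 to 88.9 FPKM (median 77.9) in the 6 XX controls of d37-39 and from 27.9 to 39.8 (median 31.3) in the 6 XY controls. At d44 it measured 80.6, 87.8 and 81.8 FPKM in XX and 29.8, 28.2 and 32.6 FPKM in XY gonads. The sexes were apart at both ages, with log2 fold changes of 1.20 ± 0.11 (SE; adjusted p = 4.95e-06) and 1.44 ± 0.08 (adjusted p = 0.000148). SIX4 ranged from 2.17 to 3.00 FPKM (median 2.56) in XX and from 0.851 to 1.26 (median 0.997) in XY controls of d37-39. At d44 SIX4 measured 2.48, 2.19 and 2.83 FPKM in XX and 0.617, 0.589 and 0.767 FPKM in XY gonads. The sexes were again apart, although the level was low throughout: the log2 fold changes were 0.83 ± 0.10 (adjusted p = 5.29e-05) and 1.08 ± 0.17 (adjusted p = 0.00618), and at such levels the added 1 FPKM makes this scale understate the difference.

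WT1 was higher in XX gonads too. It ranged from 56.9 to 78.6 FPKM (median 72.3) in XX and from 39.6 to 42.3 (median 40.95) in XY controls of d37-39, and measured 74.2, 75.6 and 80.0 FPKM in XX and 37.7, 32.2 and 33.5 FPKM in XY controls of d44. No XY library reached an XX one. The log2 fold change was 0.76 ± 0.08 (adjusted p = 9.86e-06) at d37-39 and 1.13 ± 0.08 (adjusted p = 0.000416) at d44. The difference between these ages, tested as an interaction, was 0.37 ± 0.12 on the log2 scale with an unadjusted p of 0.00773, and did not pass (adjusted p = 0.241). None of the 7 genes passed this test of age (0.335% of loci in the assembly table and 1.09% in the annotated table passed), and WT1 alone of the 7 had an unadjusted p under 0.05 with limma. LHX9 ranged from 45.6 to 79.6 FPKM (median 61.0) in XX and from 23.6 to 47.7 (median 31.8) in XY controls of d37-39, where 1 XY library reached into the XX range. At d44 it measured 56.3, 72.8 and 53.7 FPKM in XX and 31.6, 41.4 and 32.4 FPKM in XY gonads, without overlap. Its log2 fold changes were 0.90 ± 0.17 (adjusted p = 0.00149) and 0.77 ± 0.16 (adjusted p = 0.017), the latter lost when XX control replicate 1 (adjusted p = 0.0503) or XY control replicate 3 (adjusted p = 0.0545) was left out.

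NR5A1 was lower in XX gonads. It ranged from 56.0 to 63.5 FPKM (median 57.9) in XX and from 59.9 to 99.9 (median 96.0) in XY controls of d37-39. The groups overlapped through 1 XY library at 59.9 FPKM, the other 5 lying at 93.8 FPKM or above. At d44 it measured 64.6, 57.8 and 63.8 FPKM in XX and 104, 91.5 and 89.1 FPKM in XY gonads, which were apart. The log2 fold change was −0.61 ± 0.11 (adjusted p = 0.00076) at d37-39 and −0.60 ± 0.09 (adjusted p = 0.00324) at d44. At the assembled NR5A1 locus the same comparisons gave −0.64 ± 0.16 (adjusted p = 0.0089) and −0.46 ± 0.08 (adjusted p = 0.00774).

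CITED2 in XY controls of d37-39 fell into the 2 litters. It measured 47.4, 46.0 and 48.3 FPKM in the d37 litter and 79.1, 80.9 and 79.1 FPKM in the d39 litter, while XX controls of both litters lay between 34.8 and 40.7 FPKM (median 36.1). The sexes were apart in each litter, and the XX to XY ratio of means was 0.761 in the d37 litter and 0.469 in the d39 litter. The log2 fold change over both litters was −0.73 ± 0.16 (adjusted p = 0.00354). At d44 CITED2 measured 41.4, 51.8 and 47.3 FPKM in XX and 57.9, 64.9 and 59.1 FPKM in XY gonads, a log2 fold change of −0.37 ± 0.10 whose adjusted p of 0.0486 exceeded 0.05 with any 1 of the 6 libraries left out. TCF21 did not pass: it ranged from 24.4 to 34.3 FPKM in XX and from 17.9 to 28.7 in XY controls of d37-39 (log2 fold change 0.33 ± 0.12, adjusted p = 0.0644). At d44 TCF21 measured 33.9, 42.03 and 29.2 FPKM in XX and 28.6, 28.9 and 18.01 FPKM in XY gonads, which were apart but did not pass either (0.48 ± 0.22, adjusted p = 0.173).

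**Figure D2:**
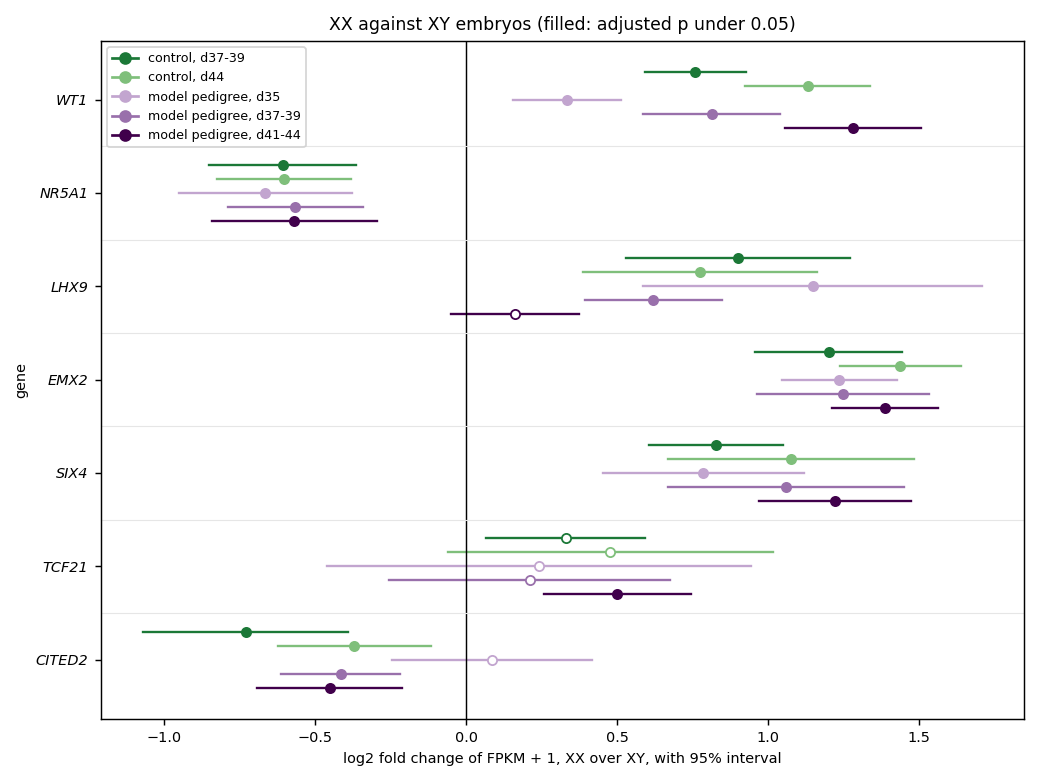
Log2 fold change of FPKM + 1, XX over XY (x axis), for each gene (y axis) in 5 comparisons (2 control, 3 model pedigree), with 95% intervals from limma and filled points where the adjusted p was under 0.05. EMX2 stays near or above 1.2 in all 5, NR5A1 is below 0 in all 5, and LHX9 has an open point in the model pedigree at d41-44.

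In the model pedigree the comparison of XX DSD with XY littermate gonads showed most of the same differences. At d35, 5 genes passed (21.4% of loci in the assembly table, 24.3% in the annotated table), at d37-39, 6 passed (7.49% and 29%), and at d41-44, 6 passed (28.3% and 42%). The groups did not overlap for 3, 5 and 6 of the 7 genes, beside 12.8%, 6.12% and 29% of all loci. EMX2, SIX4 and WT1 were higher and NR5A1 was lower in XX DSD gonads at all 3 ages.

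EMX2 measured 30.4, 28.0, 28.4 and 25.2 FPKM in XY littermates of d35 against 56.4 to 75.7 (median 67.5) in XX DSD gonads, and 36.9, 30.6 and 31.6 FPKM in XY littermates of d41-42 against 77.1 to 92.0 (median 89.3). None overlapped, and the log2 fold changes were 1.24 ± 0.09 at d35 (adjusted p = 8.06e-07), 1.25 ± 0.13 at d37-39 (adjusted p = 2.37e-05) and 1.39 ± 0.08 at d41-44 (adjusted p = 3.54e-06). WT1 measured 65.0, 49.8, 54.3 and 49.4 FPKM in XY littermates of d35, 36.3, 45.7, 45.2, 28.9 and 35.03 FPKM at d37-39, and 28.4, 29.6 and 21.3 FPKM at d41-42. XX DSD gonads stayed between 58.5 and 76.8 FPKM at all 3 ages, overlapping XY littermates only at d35 among these 3 comparisons. The log2 fold changes of WT1 were 0.33 ± 0.08 (adjusted p = 0.0112), 0.81 ± 0.11 (adjusted p = 0.000148) and 1.28 ± 0.10 (adjusted p = 2.55e-05), and whether they differ between ages was not tested in this pedigree. The d35 value of WT1 rested on single libraries: its adjusted p was 0.0546 without XY littermate replicate 2 and 0.0549 without replicate 4.

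SIX4 stayed low in both sexes of the model pedigree. It measured 2.23, 1.31, 1.05 and 0.983 FPKM in XY littermates of d35 against 2.11 to 3.57 (median 3.32) in XX DSD gonads, overlapping through 1 XY library. The groups were apart at d37-39, with 0.923, 0.867, 0.813, 1.37 and 0.734 FPKM against 2.35 to 3.82, and at d41-44, with 1.03, 0.848 and 1.24 FPKM against 3.02 to 4.34. The log2 fold changes of SIX4 were 0.78 ± 0.15 (adjusted p = 0.00275), 1.06 ± 0.18 (adjusted p = 0.00155) and 1.22 ± 0.11 (adjusted p = 6.52e-05).

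LHX9 was the gene whose sex difference did not pass at the latest age. It measured 27.6, 22.1, 27.7 and 31.2 FPKM in XY littermates of d35 and ranged from 38.7 to 129 (median 54.6) in XX DSD gonads, without overlap (log2 fold change 1.15 ± 0.26, adjusted p = 0.00674). At d41-44 it measured 32.7, 35.5 and 43.2 FPKM in XY littermates and from 37.05 to 46.2 (median 41.1) in XX DSD gonads, which overlapped. The log2 fold change was 0.16 ± 0.09 with a 95% interval from −0.05 to 0.37 (adjusted p = 0.258), and without XY littermate replicate 3 it was 0.27 (adjusted p = 0.0352). TCF21 passed at d41-44 alone of the 3 ages, with 11.1, 12.8 and 13.3 FPKM in XY littermates against 15.3 to 21.96 (median 17.9) in XX DSD gonads (log2 fold change 0.50 ± 0.11, adjusted p = 0.00748). The study lists an earlier age for the 3 embryos labelled d41, but staged them by development and analysed them with its oldest group. Without these 3 embryos this TCF21 value was 0.45 (adjusted p = 0.0845), and in 1 fit of all 53 single-embryo libraries it was 0.50 (adjusted p = 0.202).

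NR5A1 in XX DSD gonads was below that of XY littermates at each age. XY littermates measured 76.6, 79.1, 81.3 and 92.5 FPKM at d35 and 58.8, 61.6 and 48.3 FPKM at d41-42, and XX DSD gonads ranged from 33.0 to 62.5 (median 54.3) and from 31.8 to 45.4 (median 37.4) at the same ages. The groups were apart in both cases, with log2 fold changes of −0.66 ± 0.13 (adjusted p = 0.00254) and −0.57 ± 0.12 (adjusted p = 0.00444). CITED2 showed no difference that passed at d35, with 39.3, 43.5, 47.0 and 49.97 FPKM in XY littermates and 28.8 to 58.5 (median 49.8) in XX DSD gonads. At d37-39 it was lower in XX DSD gonads (log2 fold change −0.42 ± 0.09, adjusted p = 0.00997). The median of all loci there was −0.28 in the assembly table and 0.007 in the annotated table. At d41-44 CITED2 measured 80.6, 73.9 and 57.6 FPKM in XY littermates and 46.0 to 55.1 FPKM in XX DSD gonads, apart by −0.45 ± 0.11 (adjusted p = 0.0115, and 0.0664 without the 3 embryos labelled d41). The d37-39 difference of CITED2 became 0.14 under upper-quartile scaling (adjusted p = 0.66) and −0.21 (adjusted p = 0.256) without the 4 libraries rich in unannotated loci.

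**Figure D3:**
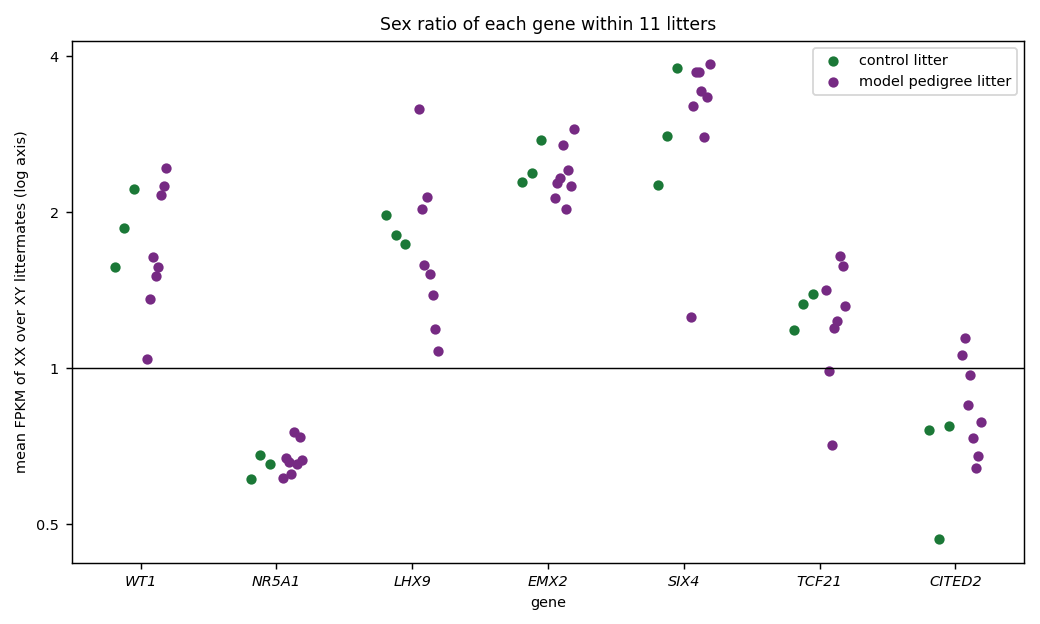
Ratio of the mean FPKM of XX to XY embryos of the same litter (y axis, log scale) for each gene (x axis), 1 point per litter (3 control, 8 model pedigree). EMX2 ratios lie between 2.03 and 2.89 in all 11 litters and NR5A1 ratios between 0.612 and 0.753, while TCF21 and CITED2 fall on both sides of 1.

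In each of the 11 litters with both sexes, the XX mean exceeded the XY mean for EMX2 (ratios from 2.03 to 2.89, median 2.32), SIX4 (1.26 to 3.86, median 3.33), WT1 (1.04 to 2.43, median 1.64) and LHX9 (1.08 to 3.16, median 1.73), and fell below it for NR5A1 (0.612 to 0.753, median 0.66). TCF21 was higher in XX embryos of 9 litters and lower in 2 (0.713 to 1.64). CITED2 was higher in XX embryos of 2 litters, both of d35, and lower in 9 (0.469 to 1.14). Beside these ratios the sexes differed in cell type markers: the keratin KRT19 averaged 36.03 FPKM in XX and 9.56 FPKM in XY controls of d37-39, and the sum of 5 Leydig markers had a median of 667 FPKM in XX and 6108 FPKM in XY gonads. KRT19 made up nearly all of the sum of 5 surface epithelium markers (medians 39.5 and 10.4 FPKM), while UPK3B, UPK1B and MSLN averaged under 1 FPKM in both sexes and KRT18 was listed at 0. The part of these markers in the 7 genes' differences was not tested.

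Differences between pedigrees address how XX DSD gonads differ from age-matched XX controls. At d37-39, 3 of the 7 genes passed (13.8% of loci in the assembly table, 31.2% in the annotated table): LHX9 and TCF21 were lower and CITED2 was higher in XX DSD gonads. At d41-44, 5 passed (48.5% and 68.8%), of which NR5A1, TCF21, LHX9 and WT1 were lower and SIX4 was higher. The libraries were apart for 1 gene at d37-39 (6.23% of all loci) and for 5 at d41-44 (46.7% of all loci). In the later comparison the controls are 1 litter of d44, the XX DSD gonads span d41 to d44 and were sequenced less deeply, and these cannot be told apart from the pedigree.

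TCF21 was lower in XX DSD gonads at both ages. It ranged from 11.4 to 26.7 FPKM (median 19.7) in the 8 XX DSD gonads and from 24.4 to 34.3 (median 31.4) in the 6 XX controls of d37-39, overlapping slightly. It ranged from 15.3 to 21.96 FPKM (median 17.9) in the 6 XX DSD gonads of d41-44 and measured 33.9, 42.03 and 29.2 FPKM in XX controls of d44, without overlap. The log2 fold changes were −0.71 ± 0.17 (adjusted p = 0.0132) and −0.91 ± 0.13 (adjusted p = 0.000311). With litter as a random block, the d37-39 value of TCF21 was −0.69 with an adjusted p of 0.0729. In XY gonads TCF21 measured 17.4, 21.0, 15.7, 9.52 and 18.3 FPKM in littermates and from 17.9 to 28.7 (median 26.3) in controls of d37-39, and 11.1, 12.8 and 13.3 FPKM in littermates and 28.6, 28.9 and 18.01 FPKM in controls of d41-44. XY littermates thus also lay mostly below their controls, with log2 fold changes of −0.59 ± 0.19 (unadjusted p = 0.00913, adjusted p = 0.164) and −0.94 ± 0.20 (adjusted p = 0.0406). The later of these TCF21 calls held in 1 of 6 fits with a library left out, that without XY control replicate 3, and the adjusted p was 0.0726 to 0.146 in the other 5.

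LHX9 ranged from 38.4 to 56.5 FPKM (median 44.9) in XX DSD gonads and from 45.6 to 79.6 (median 61.0) in XX controls of d37-39, with overlap. At d41-44 it ranged from 37.05 to 46.2 FPKM (median 41.1) and the XX controls measured 56.3, 72.8 and 53.7 FPKM, without overlap. The log2 fold changes were −0.42 ± 0.12 (adjusted p = 0.0251) and −0.54 ± 0.10 (adjusted p = 0.00154), and the earlier LHX9 value had an adjusted p of 0.126 with litter as a random block and of 0.069 or 0.063 without XX control replicate 4 or 6. In XY gonads of d41-44 the pedigree difference of LHX9 was 0.08 ± 0.16. The XX difference minus the XY difference was −0.61 ± 0.18 at d41-44, with an unadjusted p of 0.00442 that did not pass after adjustment (0.201).

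NR5A1 was lower in the model pedigree at the later age in both sexes. In XX DSD gonads it measured 45.4 and 41.2 FPKM at d41, 36.5 at d42, 32.9 and 38.3 at d43 and 31.8 at d44, all below the XX controls of d44 at 64.6, 57.8 and 63.8 FPKM. The log2 fold change was −0.71 ± 0.11 (adjusted p = 0.000246). XY littermates of d41-42, at 58.8, 61.6 and 48.3 FPKM, were likewise below XY controls of d44 at 104, 91.5 and 89.1 FPKM (log2 fold change −0.75 ± 0.14, adjusted p = 0.0225). This XY value of NR5A1 lost its call in 3 of the 6 fits with 1 library left out (adjusted p of 0.0658, 0.0702 and 0.089 without XY littermate replicate 1, XY littermate replicate 2 and XY control replicate 2). For NR5A1 the XX minus XY difference of the pedigree change was 0.03 ± 0.17 on the log2 scale. At d37-39 the annotated gene and the assembled locus of NR5A1 gave different answers for XX DSD against XX controls: −0.09 ± 0.09 (adjusted p = 0.431) and −0.51 ± 0.10 (adjusted p = 0.0039). On the assembled locus the XX DSD mean was 63.3 FPKM and the XX control mean 89.6 FPKM, and the reason was not tested. Within d37-39 the annotated gene differed by day. At d37 it measured 43.8 and 48.8 FPKM in XX DSD gonads and 56.0 to 63.5 FPKM in XX controls. The 1 XY littermate of d37 measured 70.2 FPKM and the XY controls 93.8 to 99.9 FPKM. At d39 the means were 58.1 (XX DSD), 57.6 (XX control), 84.5 (XY littermate) and 84.9 FPKM (XY control).

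CITED2 at d37-39 ranged from 46.9 to 62.3 FPKM (median 55.2) in XX DSD gonads and from 34.8 to 40.7 (median 36.1) in XX controls. It was the only one of the 7 genes whose libraries were apart at this age, and the log2 fold change was 0.57 ± 0.06 (adjusted p = 8.81e-05). Upper-quartile scaling, which moved the median of all loci of the assembly table in this comparison from 0.09 to −0.29, gave 0.13 for CITED2 (adjusted p = 0.563). With it the 3 genes that passed at d37-39 were LHX9 (−0.86, adjusted p = 0.004), TCF21 (−1.14, adjusted p = 0.00175) and WT1 (−0.50, adjusted p = 0.0252), all lower in XX DSD gonads. At d41-44 CITED2 measured 46.0 to 55.1 FPKM (median 51.7) in XX DSD gonads and 41.4, 51.8 and 47.3 FPKM in XX controls, which overlapped (log2 fold change 0.12 ± 0.08, adjusted p = 0.246).

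The pedigree differences of the other 3 genes in XX gonads were smaller than their sex differences in controls. WT1 measured 60.1 to 69.7 FPKM (median 65.8) in XX DSD gonads of d41-44 and 74.2, 75.6 and 80.0 FPKM in XX controls of d44, apart by a log2 fold change of −0.23 ± 0.05 (adjusted p = 0.00542). In the annotated table the same WT1 comparison gave −0.12 (adjusted p = 0.0792). SIX4 measured 3.02 to 4.34 FPKM (median 3.74) against 2.48, 2.19 and 2.83 FPKM, also apart (log2 fold change 0.44 ± 0.10, adjusted p = 0.00517). EMX2 overlapped its XX controls at both ages, with log2 fold changes of 0.20 ± 0.10 (95% interval −0.01 to 0.40) and 0.07 ± 0.06 (95% interval −0.06 to 0.21).

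**Figure D4:**
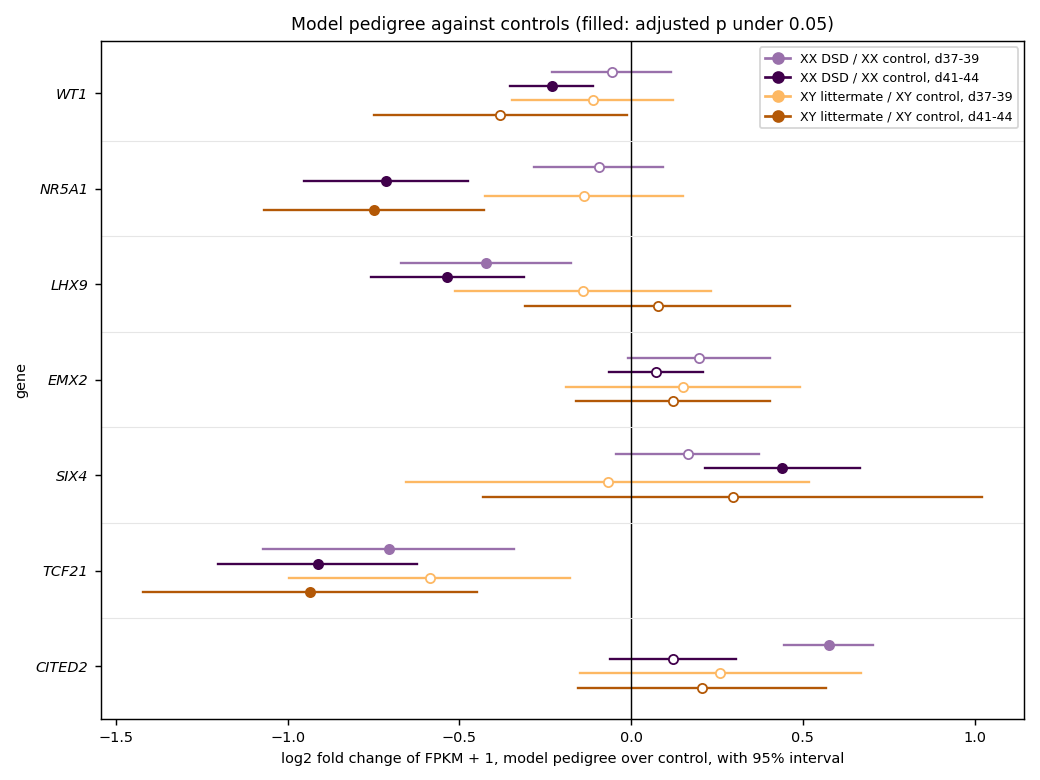
Log2 fold change of FPKM + 1, model pedigree over control (x axis), for each gene (y axis) in XX gonads (purple) and XY gonads (orange) at d37-39 and d41-44, with 95% intervals from limma and filled points where the adjusted p was under 0.05. TCF21 lies below 0 in all 4 comparisons, NR5A1 near −0.7 in both sexes at d41-44 but not over d37-39 as a whole, and EMX2 near 0.

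Among XY gonads none of the 7 genes passed at d37-39 (1.29% of loci in the assembly table and 11.6% in the annotated table passed), and 1 of them, TCF21, had an unadjusted p under 0.05 with limma. The groups overlapped for each of the 7 genes there (2.22% of all loci were apart). At d41-44, 2 passed, NR5A1 and TCF21 (11.2% and 27.7%), and 4 of the 7 were apart (41.8% of all loci). Here too the controls are 1 litter of d44. The littermates are of d41-42 and were sequenced less deeply, and these cannot be told apart from the pedigree. Tests of whether the pedigree difference varied with sex passed for none of the 7 genes (0.00514% of loci in the assembly table and 0.0207% in the annotated table passed at d37-39, and 0.115% and 0.256% at d41-44). With an unadjusted p under 0.05 there was none at d37-39 and LHX9 at d41-44. The median of all loci in the assembly table was itself shifted in some comparisons: by 0.34 for XY littermates against XY controls of d37-39, and by 0.63 for XY littermates of d37-39 against those of d35, against 0.01 and −0.02 in the annotated table. For XY littermates against XY controls of d37-39, upper-quartile scaling moved that median from 0.34 to −0.40, and WT1 (−1.03, adjusted p = 0.0418), LHX9 (−1.05, adjusted p = 0.0353) and TCF21 (−1.47, adjusted p = 0.029) then passed.

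Within the d35 XX DSD group, LHX9 (SD 27.9 FPKM) and TCF21 (SD 18.1 FPKM) had the largest spread of the 10 groups of single embryos, and the embryos divided by litter. The litter with the most embryos (4 of the 9, 1 homozygous and 3 heterozygous) measured 66.8 to 129 FPKM for LHX9 and 33.96 to 71.6 FPKM for TCF21. The 5 embryos of 3 other litters measured 38.7 to 54.6 and 15.7 to 29.0 FPKM, so the litter stood apart for these 2 of the 7 genes (3.02% of loci at a mean of 1 FPKM or more were apart in this way), at 1.84 and 2.15 times the others' mean. NR5A1 (33.0 to 57.3 against 52.1 to 62.5 FPKM) and CITED2 (28.8 to 49.8 against 48.0 to 58.5 FPKM) overlapped. The extreme values of all 4 genes belonged to 1 embryo, replicate 8, at 129 FPKM for LHX9, 71.6 for TCF21, 33.0 for NR5A1 and 28.8 for CITED2. Replicate 8 also had the lowest relative depth of the 9 (0.248, the others 0.346 to 1.0), and the part of depth in these values was not tested. The same litter also stood apart in the sum of surface epithelium markers (60.002 to 249 against 32.4 to 49.5 FPKM), in which KRT19 averaged 76.1 FPKM over the 9 embryos and the other 4 genes under 1 FPKM, and in the sum of WT1 target genes (203 to 249 against 141 to 186 FPKM), and its Leydig marker sum reached down to 162 FPKM against 761 FPKM or more in the others. Whether these markers have a part in the litter's LHX9 and TCF21 values was not tested.

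**Figure D5:**
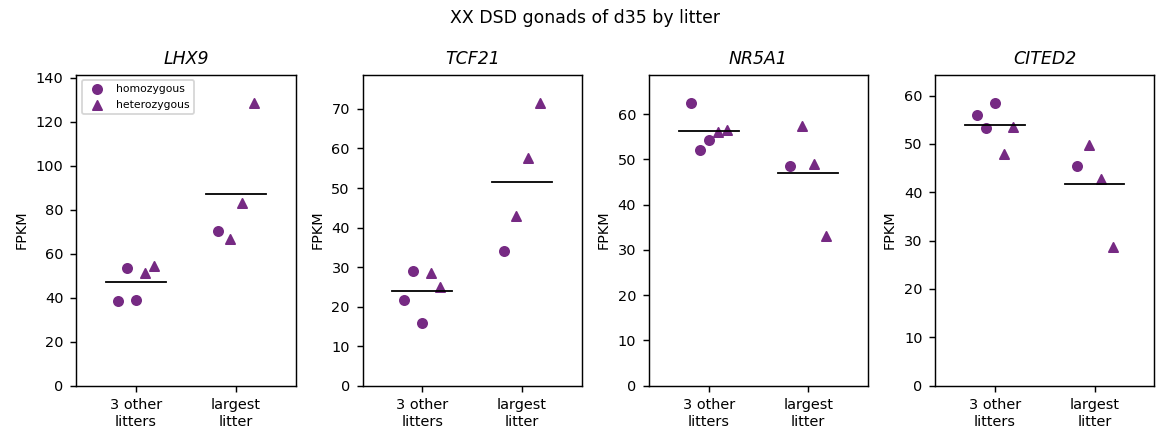
FPKM (y axis, linear from 0) of LHX9, TCF21, NR5A1 and CITED2 in the 9 XX DSD gonads of d35, split into the litter with the most embryos (4) and 3 other litters (5 embryos), with circles for homozygous and triangles for heterozygous embryos and bars for means. LHX9 and TCF21 of the largest litter lie above all values of the others, and 1 heterozygous embryo is the highest or the lowest of the 9 in each panel.

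Insertion genotype was compared among these d35 gonads, where homozygous and heterozygous embryos were both frequent; the genotypes are those the study lists for each embryo, not the sample labels. None of the 7 genes passed with limma (0.0172% of loci in the assembly table and 0.0147% in the annotated table passed), and EMX2 and TCF21 had an unadjusted p under 0.05 (0.0472 and 0.0452). The genotypes overlapped for each of the 7 genes (8.71% of loci were apart). TCF21 was lower in homozygous embryos by a log2 fold change of −0.77 ± 0.33 with a 95% interval from −1.51 to −0.02, but 3 of the 5 heterozygous embryos came from the litter with high TCF21, so genotype and litter cannot be told apart there. In 1 fit of all 53 single-embryo libraries, LHX9 (−0.56, adjusted p = 0.0379) and TCF21 (adjusted p = 0.0241) passed.

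In each age comparison tested, at most 1 of the 7 genes passed. In the model pedigree d41-44 was not tested against d37-39. NR5A1 in XY littermates measured 70.2 to 90.9 FPKM at d37-39 and 48.3 to 61.6 FPKM at d41-44, without overlap. Its mean in XX DSD gonads was 55.1 and 37.7 FPKM at these ages, with overlapping ranges. For XY littermates of these ages the WT1 mean was 38.2 and 26.4 FPKM and the LHX9 mean 29.6 and 37.1 FPKM, with overlap. In XX controls CITED2 was higher at d44 than at d37-39 (log2 fold change 0.34 ± 0.07, adjusted p = 0.0489, against 2.61% of loci called in the assembly table, 5.48% in the annotated table and 13.4% apart), but its adjusted p exceeded 0.05 in 7 alternative analyses and without XX control d44 replicate 2 (0.187) or 3 (0.188). In XY controls none passed with limma (0.138% and 0.303% of loci) although WT1 and SIX4 did not overlap between the ages (6.17% of loci), with an unadjusted p under 0.05 for WT1 only, which was lower at d44 (log2 fold change −0.24 ± 0.08, unadjusted p = 0.0177). In XX DSD gonads EMX2 rose from d35, at 56.4 to 75.7 FPKM, to d37-39, at 71.3 to 103 FPKM (log2 fold change 0.37 ± 0.08, adjusted p = 0.0111, against 4.87% and 10.5% of loci called), although the ranges overlapped, as for each of the 7 genes (0.76% of loci were apart), and upper-quartile scaling gave 0.14 for EMX2 (adjusted p = 0.497). In XY littermates CITED2 went from 39.3, 43.5, 47.0 and 49.97 FPKM at d35 to 63.1, 64.2, 73.7, 79.9 and 91.1 FPKM at d37-39, without overlap (log2 fold change 0.71 ± 0.12, adjusted p = 0.00609, against 11.5% and 35.1% of loci called and 17% apart). Relative to the median of all loci in the assembly table (0.63, against −0.02 in the annotated table) this CITED2 difference was 0.07. Upper-quartile scaling turned this difference to −0.088 (adjusted p = 0.792). Without the 4 libraries rich in unannotated loci it was 0.50 (adjusted p = 0.0431).

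Loci next to the members were examined within 10 kb. An unannotated 3-exon locus on the same strand as NR5A1, at chr9:58454075-58462222 and ending 1626 bp before it, was lower in XX DSD than in XX control gonads. It measured 5.004 to 9.90 FPKM (median 8.16) in XX DSD and 15.6 to 19.8 FPKM (median 17.4) in XX control gonads of d37-39, and 6.24 to 10.2 FPKM (median 7.03) against 17.8, 18.03 and 20.2 FPKM at d41-44. The groups were apart at both ages (6.23% and 46.7% of all loci were). The log2 fold changes were −1.15 ± 0.15 (adjusted p = 0.00028) and −1.21 ± 0.13 (adjusted p = 5.7e-05), where 13.8% and 48.5% of loci were called. In XY gonads of d37-39 this locus measured 7.19 to 15.5 FPKM (median 9.40) in littermates and 11.4 to 37.7 FPKM (median 32.8) in controls. At d41-44 it measured 10.1 to 30.2 FPKM (median 10.3) in littermates and 20.9 to 25.1 FPKM (median 22.8) in controls. The XY groups thus overlapped at both ages, but the median was lower in littermates at both, as in XX gonads. At d37-39 the annotated NR5A1 gene overlapped between XX DSD and XX control gonads (43.8 to 66.9 against 56.0 to 63.5 FPKM). Whether this locus belongs to an NR5A1 transcript was not tested. The opposite-strand locus within EMX2 was higher in XX controls as EMX2 was (0.95 ± 0.18, adjusted p = 0.00157 at d37-39, and 1.28 ± 0.10, adjusted p = 0.000549 at d44), as was an unannotated locus beginning just beyond EMX2 (0.88 ± 0.22, adjusted p = 0.0092 at d37-39). The locus opposite TCF21 gave 0.33 ± 0.11 (adjusted p = 0.0558) and 0.14 ± 0.12 (adjusted p = 0.371) for XX DSD against XX controls at d37-39 and d41-44, where TCF21 itself was lower. EIF3M, opposite the WT1 upstream end, averaged 474 FPKM over all libraries and was higher in XX controls (0.42 ± 0.09, adjusted p = 0.0044 at d37-39). MNAT1, opposite SIX4, did not pass between control sexes at d37-39 (−0.12 ± 0.11, adjusted p = 0.49).

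Other genes of the genital ridge did not share 1 direction between the sexes. Of 12 tested in controls of d37-39, 3 were higher and 4 lower in XX gonads (26.5% of all loci called; median log2 fold change 0.10, against −0.01 over all loci). GATA4, a zinc finger factor that binds the regulatory region of many gonadal genes, averaged 52.8 FPKM in XX and 79.4 FPKM in XY gonads (−0.57, adjusted p = 5.4e-05). NR2F2, a nuclear receptor of interstitial cells (0.58, adjusted p = 0.000134), and the Polycomb protein CBX2 (0.69, adjusted p = 0.000371) were higher in XX gonads. In XX DSD gonads of d41-44, 6 of the 12 were lower and 1 higher than in XX controls (median −0.28, against −0.09 over all loci, with 48.5% of loci called). These included GATA4 (36.7 against 58.8 FPKM, −0.67, adjusted p = 6.9e-06), CBX2 (−0.60, adjusted p = 3.87e-05), the zinc finger factor OSR1 (−0.97, adjusted p = 9.65e-05) and GADD45G, which acts upstream of SRY in the mouse (1.42 against 5.10 FPKM, −1.34, adjusted p = 2.88e-05). OSR1 (−0.54, adjusted p = 0.0123) and GADD45G (−1.30, adjusted p = 0.0001) were also lower at d37-39.

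Partners and relatives of the 7 regulators split in the same way, 5 of 14 being higher and 3 lower in XX controls of d37-39 (26.5% of all loci called; median 0.08). BASP1, a corepressor that binds WT1, averaged 83.1 FPKM in XX and 34.6 FPKM in XY gonads (1.26, adjusted p = 5.61e-06). CITED1, the paralogue of CITED2, averaged 3.59 FPKM in XX and 25.3 FPKM in XY gonads (−2.52, adjusted p = 8.29e-08). DACH1, a cofactor of SIX4 (0.92, adjusted p = 0.000101), and TCF12, a helix-loop-helix partner of the TCF21 class (0.47, adjusted p = 0.00104), were higher in XX gonads. Of the same 14, 4 were higher and 5 lower in XX DSD than in XX control gonads of d41-44 (48.5% of all loci called), the lower ones including TCF3, another helix-loop-helix partner (19.7 against 45.6 FPKM, −1.18, adjusted p = 2.34e-05), LDB1, the LIM-domain binding protein that LHX9 uses (−0.58, adjusted p = 3.03e-05), and the acetyltransferase CREBBP, which CITED2 binds (−0.62, adjusted p = 4.9e-05).

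Known target genes of NR5A1 were mostly lower in XX controls. At d37-39, 9 of 12 were lower and 1 was higher in XX gonads (26.5% of all loci called; median log2 fold change −2.04), among them the testosterone-forming enzyme HSD17B3 (0.134 against 58.9 FPKM, −5.71, adjusted p = 1.22e-12), the gonadotropin receptors FSHR (−2.53, adjusted p = 1.13e-06) and LHCGR (−1.69, adjusted p = 2.58e-05) and the electron carrier FDX1 (−2.87, adjusted p = 4.86e-05). Between XX DSD and XX control gonads of d41-44, where NR5A1 itself was lower, 2 of 11 targets were lower and 2 higher (48.5% of all loci called; median 0.35): AMHR2, the receptor of anti-Müllerian hormone (−0.91, adjusted p = 1.97e-05), and the inhibin subunit INHA (−1.28, adjusted p = 0.000921) were lower, and FSHR (1.05, adjusted p = 0.00186) and LHCGR (0.61, adjusted p = 0.0239) were higher. The 5 Leydig markers are all on this target list too, and their sum ranged from 363 to 1938 FPKM in these XX DSD gonads and from 307 to 491 FPKM in the XX controls. Of 5 WT1 target genes tested, 2 were higher and 1 lower in XX controls of d37-39 (26.5% of all loci called; median 0.10). WNT4, a signal of the ovary pathway (2.34, adjusted p = 9.34e-08), and PODXL, a surface sialomucin (0.99, adjusted p = 1.39e-06), were higher in XX gonads, and SPRY1, an inhibitor of growth factor signalling, was lower (−0.37, adjusted p = 0.0162). In XX DSD gonads of d41-44, 2 of the 5 were lower than in XX controls (48.5% of all loci called), AMHR2, which is on both target lists, and WNT4 (16.3 against 35.2 FPKM, −1.07, adjusted p = 2.72e-05).

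Likeness of pattern was described by Pearson's r over the 10 group means of log2(FPKM + 1), with no test, since groups share litters and sex. Among the 7 genes EMX2 and SIX4 were most alike (r = 0.93), followed by WT1 and SIX4 (r = 0.87), and NR5A1 ran opposite to SIX4 (r = −0.85) and EMX2 (r = −0.78). Of all named loci with a mean of at least 4 FPKM, those most like WT1 were COTL1 (r = 0.98), TESC and FAM163A, and those most like NR5A1 were ANXA11 (r = 0.99), PLEKHO2 and SYVN1. EMX2 was nearest to GPC5, CBLN2 and RUNX1T1 (each r = 0.99) and SIX4 to CD38 (r = 0.99), ANKRD45 and WDR19. LHX9 was nearest to WNT2B (r = 0.94), NRP2 and CACNA1G, TCF21 to FBXW9 (r = 0.98), ENKD1 and TCEA2, and CITED2 to APBB2 (r = 0.97), FCHSD2 and GOT1L1.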

How the data were processed

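Gonad poly(A)+ RNA was sequenced from 55 libraries. The authors mapped single-end reads to canFam3 with TopHat2 2.0.13 and deposited FPKM values from Cuffnorm of Cufflinks 2.2.1, for annotated genes and for the loci of an assembly guided by that annotation. Here FPKM values were log2-transformed after adding 1 and tested two-sided with limma 3.58.1 (eBayes with trend) in R 4.3.3, on all loci whose mean reached 1 FPKM in at least 1 of the groups, with Benjamini-Hochberg adjustment over each whole table. Only the groups compared entered a fit. Counts were not used, so counting error is unknown, and relative depth came from the steps between low FPKM values. Litters and genotypes were taken from the study. Embryos of 1 litter share a dam, so p-values measure the spread among embryos. Alternatives changed the pseudocount, filter, table, scaling, variance model, litter model, age and libraries, and leaving out the 4 libraries rich in unannotated loci was chosen after seeing the data. The 7 genes were named with values in the comparisons where a result turned on them and counted in the others; list genes were named as up to 4 with the lowest adjusted p, and the most alike as the 3 with the highest r. The members and lists were chosen with earlier results of these data known. The authors' p-values were not used. The tests were tested on simulated data with known changes.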

Additional observations from a re-analysis of the deposited data

Results flagged for a closer look

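Of 49 combinations of a gene and a group of 4 to 10 libraries, 7 held a library farther from the rest than Dixon's 95% limit allows; chance alone flags about 1 in 20, or 2.45 of 49. In XX DSD gonads of d35, replicate 8 was the lowest for NR5A1 (33.0449 FPKM, the next 48.6) and for CITED2 (28.7742 FPKM, the next 42.8). In controls of d37-39, XY replicate 6 was the lowest for NR5A1 (59.9113 FPKM, the next 93.8), XX replicate 6 the highest for CITED2 (40.7383 FPKM, the next 36.5) and XX replicate 1 the lowest for TCF21 (24.4363 FPKM, the next 30.6). XY littermate replicate 5 of d37-39 was the highest for LHX9 (39.3092 FPKM, the next 29.5), and XX DSD replicate 1 of d41-44 the lowest for EMX2 (77.129 FPKM, the next 88.4). No cause was tested.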

How the results depend on the processing

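Of 1980 values of the 7 genes under an alternative, 1877 kept their direction and side of the threshold where called, 72 lost the call, 29 gained one and 2 reversed (65 values that were not called changed sign). Both reversals were CITED2 under upper-quartile scaling: 0.14 for XX DSD against XY littermates of d37-39 and −0.088 for XY littermates of d37-39 against d35. With 1 value per litter and group, the numbers of the 7 genes that passed were 3 instead of 6 (XX against XY controls, d37-39), 0 instead of 3 and 3 instead of 5 (XX DSD against XX controls, d37-39 and d41-44), 0 instead of 2 (XY littermates against XY controls, d41-44), 2 instead of 5 and 4 instead of 6 (XX DSD against XY littermates, d35 and d37-39), and 0 instead of 1 in the age comparisons of XX controls, XX DSD and XY littermates. Such fits have few degrees of freedom. Litter as a random block gave 1 instead of 3 for XX DSD against XX controls of d37-39, and litter as a fixed factor 3 instead of 5 for XX DSD against XY littermates of d35. Upper-quartile scaling gave 3 instead of 0 for XY littermates against XY controls of d37-39.

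For XY littermates against XY controls of d41-44, 1 instead of 2 passed with all loci above 0 or without the variance trend, 0 without the embryos labelled d41, which the study staged by development, and 0 to 2 with 1 library left out. For XX controls of d44 against d37-39, 0 instead of 1 passed with all loci above 0, either other scaling, no variance trend, 1 fit of all 53 libraries or litter as a random block, and 0 to 1 with 1 library left out. For XX DSD of d37-39 against d35, 1 fit of all 53 libraries gave 2. For XY littermates of d37-39 against d35, 3 instead of 1 passed with a pseudocount of 0.1 or a mean of at least 4 FPKM, 4 in 1 fit of all 53 libraries, 0 under upper-quartile scaling and 1 to 2 with 1 library left out. For genotype, 1 fit of all 53 libraries gave 2 instead of 0. The cause of these changes was not tested. The labels give no replicate numbers to pair by, and litter as a fixed factor compared the sexes within litters. Without counts, how far depth limits the 7 genes was not tested.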
